A study of Gallus gallus with 12 samples.

Results

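The genes described here were at a higher level in chicken erythroblasts than in fibroblasts and were listed in neither of the deposited tables of red blood cells. They were chosen by a rule on measured values. A gene had to be listed for both erythroblasts and fibroblasts, to have an erythroblast mean of at least 1 and above its fibroblast mean, and to be missing from the embryonic and the adult red blood cell table. Of 13889 genes in any table, 416 met these conditions, and the 150 with the highest ratio of erythroblast to fibroblast mean were taken as members. The rule used the levels of both cell types and the listing in both kinds of red blood cells, so the ratios below describe the choice and carry no test.

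Erythroblasts are the dividing precursors of red blood cells. As they mature they build up haemoglobin, leave the cell cycle, condense their chromatin and shut down most of their transcription. Red blood cells of birds keep a nucleus in this condensed state, unlike those of mammals, so that genes of the precursor stage can be looked for in a cell that still holds its genome.

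Stranded sequencing of total RNA, depleted of ribosomal RNA, was carried out on 12 samples of 4 cell types, with 3 replicates each, and all samples are labelled wild type. The groups are primary fibroblasts, erythroblasts of the line HD3, and primary embryonic and adult red blood cells. The embryonic cells were taken at embryonic day 10, and the adult cells came from hens that were 28 to 38 weeks old. HD3 is a single cultured line, which limits it as a model of erythroblasts in an animal. The red blood cells are primary, so cell stage and source cannot be told apart between them and HD3. The fibroblasts are primary too, so cell type and source cannot be told apart in the ratio of HD3 to fibroblasts. A fall in what follows is a lower level in red blood cells than in HD3. Nothing in the labels says whether replicates came from separate cultures or animals, so the spread between them may be technical. The files give Ensembl gene IDs without names, and the RefSeq table used here matched 0 of the 13889 IDs. Cell type markers could therefore not be checked, roles of single members are not given, and 2 members are given by ID and the others by rank.

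Levels are FPKM (fragments per kilobase of gene, relative to the size of the library) that the authors scaled to cell number. They are called scaled FPKM here. Every deposited mean was 0.3 or more, so each table was taken to stop at 0.3. In samples of many cells, fewer cells that express a gene and less RNA per cell cannot be told apart. The number of reads on listed genes, worked out from the deposited values, ranged from 8853484 to 23385205 in the fibroblast libraries, from 9051846 to 19379169 in the erythroblast libraries, from 6454390 to 17808106 in the embryonic and from 2916238 to 9541884 in the adult red blood cell libraries. Erythroblast replicate 1 and fibroblast replicate 2 stood apart from the other libraries of their cell type. Erythroblast replicate 1 had the fewest reads of its group, 9051846 against 19081710 and 19379169 in replicates 2 and 3. Fibroblast replicate 2 had the most of its group, 23385205 against 8853484 and 18979355 in replicates 1 and 3. Over all listed genes, Pearson's r of log2(scaled FPKM + 1) was 0.900 and 0.905 between erythroblast replicate 1 and replicates 2 and 3, against 0.997 between the latter. Among fibroblasts, r was 0.982 between replicates 1 and 3, but 0.916 and 0.906 where replicate 2 was in the pair.

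Genes at a higher level in erythroblasts were few on the per-cell scale. Of 9899 genes listed for both cell types, 7853 had an erythroblast mean of at least 1, and 524 of these lay above their fibroblast mean. Of the 524, 27 were listed in both red blood cell tables, 74 in the embryonic table alone, 7 in the adult table alone and 416 (79.4%) in neither. The members reach down to a ratio of 2.14. The last member, at rank 150, had an erythroblast mean of 2.10 and a fibroblast mean of 0.981, while the gene at rank 151, just outside, had a ratio of 2.11 with means of 2.67 and 1.27. Among all 203 enriched genes with a ratio at least as high as that of the last member, the 150 members make up 73.9%, and the other 53 were listed for red blood cells.

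**Figure D1:**
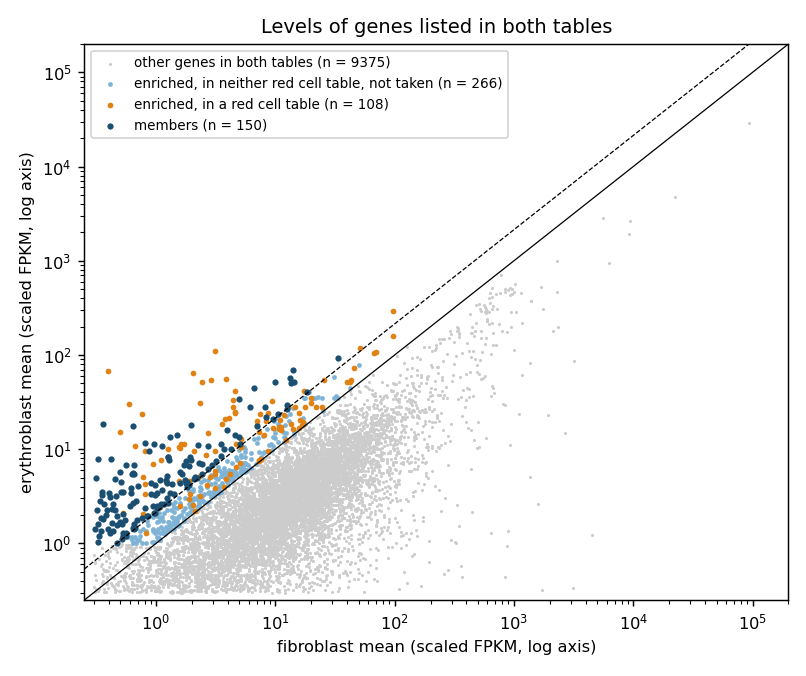
Mean scaled FPKM in erythroblasts (vertical, log axis) against fibroblasts (horizontal, log axis) for the 9899 genes in both tables, as points coloured by set; the solid line marks equal levels and the dashed line the ratio of the last member. The 150 members (dark blue) lie above the dashed line and mostly at low fibroblast means, with a median of 0.979, beside the 108 enriched genes listed for red blood cells (orange).

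Ratios among the members ran from 2.14 to 51.4 with a median of 3.59. They were at 10 or more in 13 members, between 5 and 10 in 33, between 3 and 5 in 49 and under 3 in 55. The erythroblast mean ran from 1.006 to 94.0 scaled FPKM with a median of 4.29, and the fibroblast mean from 0.310 to 33.2 with a median of 0.979. In 77 members the fibroblast mean was under 1, and in 47 it was under 0.6. A gene below 0.3 in fibroblasts is in no pair of levels at all, which leaves out 404 genes listed for erythroblasts and not for fibroblasts and limits how high a ratio can become.

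The member with the highest ratio was ENSGALG00000030151, with a recovered length of 2132 bp. Its scaled FPKM was 21.5, 17.8 and 16.2 in erythroblast replicates 1 to 3 and 0.103, 0.879 and 0.0968 in fibroblast replicates 1 to 3. All 3 erythroblast libraries lay far above all 3 fibroblast libraries, and fibroblast replicate 2 was the highest of the latter. The means were 18.5 ± 2.701 (SD, n = 3) and 0.360 ± 0.450 (SD, n = 3), a ratio of 51.4. These levels rest on 2417, 4235 and 3902 reads in erythroblasts but on 2, 45 and 4 reads in fibroblasts. The ratio was 185 without fibroblast replicate 2, whose 45 reads set most of the fibroblast mean, and 37.9 and 37.6 without fibroblast replicates 1 and 3.

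The next ranks were held by members with fibroblast values under 1 in every library. The member at rank 2 had a scaled FPKM of 20.5, 16.0 and 16.2 in erythroblasts and of 0.767, 0.564 and 0.605 in fibroblasts, a ratio of 27.2. At rank 3 the erythroblast values were 8.36, 8.06 and 7.47 and the fibroblast values 0.307, 0.417 and 0.259, a ratio of 24.3. In both members every fibroblast value was within a narrow range and far below the erythroblast values. The member at rank 4 had 7.84, 7.42 and 8.22 in erythroblasts and 0.746, 0.0939 and 0.427 in fibroblasts, a ratio of 18.5, with fibroblast replicate 2 the lowest here. Fibroblast replicate 2 thus gave the highest value of its group at ranks 1 and 3 and the lowest at ranks 2 and 4.

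Rank by ratio and rank by level differed. The member with the highest erythroblast mean, ENSGALG00000000811 with a recovered length of 2465 bp, was at rank 98 by ratio. Its scaled FPKM was 89.4, 93.9 and 98.6 in erythroblast replicates 1 to 3 and 36.4, 33.9 and 29.4 in fibroblast replicates 1 to 3. The values of each cell type were close together and the groups did not overlap. The means were 94.0 ± 4.58 (SD, n = 3) and 33.2 ± 3.56 (SD, n = 3), a ratio of 2.83, on 11644 to 27487 reads in erythroblasts and 814 to 2007 reads in fibroblasts.

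Among the next highest members, libraries of erythroblasts differed more. The second by erythroblast mean had 108, 48.4 and 50.8 in erythroblasts against 9.39, 20.7 and 11.9 in fibroblasts, with erythroblast replicate 1 far above the other two. The third had 26.98, 73.4 and 69.1 against 24.1, 5.74 and 10.1, with erythroblast replicate 1 the lowest and close to fibroblast replicate 1. Its recovered length was only 87 bp. The fourth had 42.1, 58.1 and 56.1 against 19.4, 4.32 and 19.4, the fifth 59.9, 48.1 and 46.7 against 12.7, 5.28 and 12.1, and the sixth 49.6, 54.3 and 49.1 against 15.4, 10.9 and 14.5. These 6 members were the ones with an erythroblast mean of 50 or more, and in none of them did the 2 groups overlap. Their ratios lay between 2.83 and 5.14, so none of the 13 members with a ratio of 10 or more was among them.

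Together the members held a small part of the erythroblast signal, with a summed level that was close in the 3 libraries. Their summed level was 1340, 1358 and 1333 scaled FPKM in erythroblast replicates 1 to 3, a mean of 1344 ± 12.9 (SD, n = 3), and 364, 398 and 321 in fibroblast replicates 1 to 3, a mean of 361 ± 38.6 (SD, n = 3). The sums over all listed genes in erythroblasts ran from 93878 to 134287. As a share of the table's sum the members took 1.43%, 1.04% and 0.993% in erythroblasts and 0.0736%, 0.0693% and 0.0632% in fibroblasts. By reads on listed genes their share was 1.81% ± 0.0543 (SD, n = 3) in erythroblasts and 0.0832% ± 0.0106 (SD, n = 3) in fibroblasts. The 10 highest members in erythroblasts held 38.8% ± 2.81 (SD, n = 3) of the members' sum there.

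**Figure D2:**
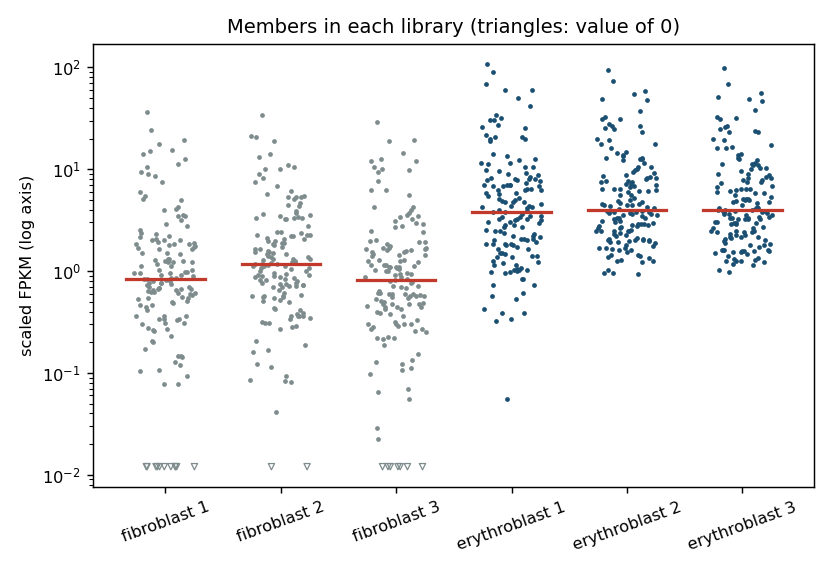
Scaled FPKM (log axis) of the 150 members in each fibroblast and erythroblast library; each point is a member, the red line is the median and open triangles at the bottom stand for a value of 0. Medians were 0.834, 1.17 and 0.824 in fibroblast replicates 1 to 3 and 3.81, 3.99 and 3.97 in erythroblast replicates 1 to 3, with the widest spread of erythroblast values in replicate 1.

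In 120 of the 150 members (80%) all erythroblast values lay above all fibroblast values. Over the 9899 genes in both tables, 2.66% did so in this direction, and since the rule used this contrast nothing is read from the difference. The other 30 members had an overlap of at least 1 pair of libraries. With a library left out the groups were apart in 120 to 141 members. The count was 141 without erythroblast replicate 1 and 135 without fibroblast replicate 2. It was 120 without erythroblast replicate 2 or 3, and 125 and 121 without fibroblast replicates 1 and 3. For a given gene, leaving a library out can only keep or remove an overlap. The share over all genes was not worked out for these settings, so nothing is read from them. In 58 members the lowest erythroblast value was at least 2-fold above the highest fibroblast value, as in 91 of all 9899 genes (0.919%).

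By limma on log2(scaled FPKM + 1), 136 members had a mean of at least 1 over the 6 samples and were tested, and 96 of these were higher in erythroblasts at an adjusted p under 0.05 and a log2 fold change of at least 1. The same call was made for 1.55% of all 9442 genes tested, 146 higher against 7408 lower. The rule used this contrast, so the 96 are a description. The split over all genes depended on the scaling. It was 1536 higher and 1219 lower with samples centred on their median gene, 1059 and 1528 with equal sums, and 2306 and 1173 with limma voom on recovered reads. The median log2 fold change over all genes tested was -1.73 on the authors' scale, 0.14 after centring on the median, -0.12 with equal sums and 0.34 with voom. Under these 3 scalings 136, 135 and 135 of the 136 members tested were higher, among 1536, 1059 and 2306 of all 9442 genes. These counts are a description as well, for the same reason.

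If the authors' factor for cell number is set aside, the members stand higher above fibroblasts. The factor of fibroblasts was 1 and that of erythroblasts at least 0.171. Divided by that bound, the ratio of a member per share of the library ran from 12.5 to 299.99 with a median of 20.9, and these values would be lower if the factor were above its bound. By the same measure 5622 genes with an erythroblast mean of at least 1 lay above their fibroblast mean, against 524 on the per-cell scale.

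Members differed in how erythroblast replicate 1 related to replicates 2 and 3. Replicates 2 and 3 lay within 1.2-fold of each other in 140 of the 150 members (93.3%), near the 89.4% of all 9899 genes. With a fibroblast mean under 2 this held for 91.2% of 114 members and 73.7% of all 899 genes. The rule asked members for an erythroblast mean of at least 1, which those 899 genes need not have. Replicate 1 was above replicates 2 and 3 in 54 members, below both in 90 and between them in 6. Over all 9899 genes it was above both in 60.1% and below both in 34.6%. Among the 899 genes with a fibroblast mean under 2 it was above both in 40.8% and below both in 51.3%, and among the 114 members of that kind in 32.5% and 63.2%, so genes low in fibroblasts leaned to the same side as the members. It was at least 2-fold above the mean of replicates 2 and 3 in 18 members and at or below 0.5 of it in 33, which is 12% and 22% of the members against 17.1% and 8.52% of all genes. With a fibroblast mean under 2 the shares were 11.4% and 26.3% of members and 14.3% and 22.2% of all such genes.

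The departures of replicate 1 were large in single members. At rank 45 by ratio the erythroblast values were 0.0557, 3.57 and 3.24 and the fibroblast values 0.757, 0.0409 and 0.557, so that replicate 1 lay below 2 of the 3 fibroblast libraries. At rank 62 the erythroblast values were 2.02, 23.1 and 22.96 and the fibroblast values 3.19, 5.36 and 3.24, and replicate 1 lay below all 3 fibroblast libraries. The opposite pattern was seen at rank 21, where the erythroblast values were 11.6, 2.49 and 2.49 and the fibroblast values 0.955, 0.0854 and 0.882. The ratios of these 3 members were 5.06, 4.08 and 8.62. Across the 150 members, Pearson's r of log2(scaled FPKM + 1) was 0.822 and 0.828 between replicate 1 and replicates 2 and 3, and 0.996 between the latter, as a description of libraries that share the same genes.

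Fibroblast values of the members were low and varied more. The coefficient of variation over the 3 libraries had a median of 45.2% in fibroblasts and 28.3% in erythroblasts, against 19.99% and 24.7% over all genes in both tables. Fibroblast replicate 2 was at least 2-fold above the mean of replicates 1 and 3 in 44 members (29.3%) and at or below 0.5 of it in 23 (15.3%), against 7.63% and 7.81% of all genes. Both kinds of departure were also more frequent over all genes low in fibroblasts, and whether read numbers account for this was not tested. Among genes with a fibroblast mean under 2, replicate 2 was at least 2-fold above in 39 of 114 members (34.2%) and in 141 of all 899 genes (15.7%), and at or below 0.5 of it in 15.8% and 19.4%.

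**Figure D3:**
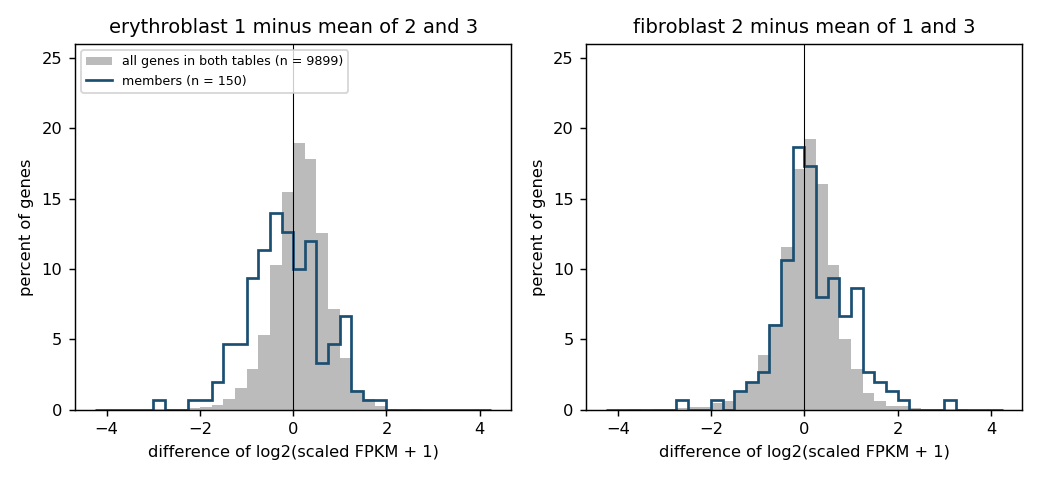
Percent of genes (vertical) by the difference of log2(scaled FPKM + 1) between 1 library and the mean of the other two of its cell type (horizontal), for members (blue outline) and all genes in both tables (grey). For erythroblast replicate 1 the median difference was -0.18 in members and 0.17 in all genes; for fibroblast replicate 2 it was 0.08 in both, with a shoulder of members on the right.

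The members had more reads in erythroblasts than in fibroblasts. Averaged over the libraries, a member had from 5.33 to 21643 reads in erythroblasts with a median of 814.5. At least 100 reads in each of the 3 libraries were found for 118 members (78.7%), as for 78.7% of all genes in both tables. With a fibroblast mean under 2 this held for 75.4% of 114 members and 34.8% of all 899 genes. Those 899 genes need not have an erythroblast mean of at least 1. In fibroblasts the average ran from 0.333 to 1408 reads with a median of 39.5. There, 18 members (12%) had fewer than 10 reads in each library, and 15 (10%) had a value of 0 in at least 1 library. Over all genes in both tables these shares were 2.51% and 1.09%. With a fibroblast mean under 2 they were 14.0% and 13.2% of 114 members and 17.7% and 10.7% of all 899 genes. No member had a 0 in erythroblasts, and 0.293% of all genes in both tables had one there. The fibroblast side of the ratio therefore rests on far fewer reads than the erythroblast side.

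Length was not used by the rule. The recovered length of the members had a median of 2192 bp, with quartiles of 1346 and 3055 bp, against 2329 bp, 1474 and 3355 bp over all genes in both tables and 2065 bp in the enriched genes that were listed for red blood cells. A length under 200 bp was found for 19 members (12.7%), 5.04% of all genes and 5 of the 108 listed enriched genes (4.63%). Among genes with a fibroblast mean under 2 the share was 12.3% of members and 15.6% of all 899 genes. Recovered lengths are lower estimates, above all for genes with few reads.

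What a missing entry in the red blood cell tables says depends on the cutoff. A level below 0.3 is at least 14.3-fold below the erythroblast mean for the median member, and the bound ran from 3.35-fold to 313-fold. The bound is the erythroblast mean divided by 0.3, so it restates that mean and holds no measurement in red blood cells. Since the rule asked for an erythroblast mean of at least 1, it also set how low the bound could be. It was 10-fold or more for 97 members, 30-fold or more for 35 and 100-fold or more for 9. The bound was 61.6-fold for ENSGALG00000030151 and 313-fold for ENSGALG00000000811, if a missing gene lay below 0.3 in red blood cells. These bounds hold on the authors' scale, in which the whole sum of levels was far lower in red blood cells, at 14041 to 18409 in the embryonic and 2056 to 3298 in the adult libraries.

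A missing entry is not a measurement of 0. At the cutoff, a gene of the members' median length would have had 383 to 1140 reads in the embryonic libraries and 757 to 2712 in the adult libraries, against 34.7 to 74.4 in erythroblasts and 5.96 to 15.8 in fibroblasts. A member could thus have had up to such numbers of reads in each red blood cell library and still be missing from the table, and whether members had reads there was not analysed here.

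With the factors estimated here, some members would have been listed for red blood cells at an unchanged share of the library. The factor for cell number was at least 0.0111 for embryonic cells and 0.00253 for adult cells, with upper estimates of 0.0205 and 0.0123. With the lower bounds, a member whose erythroblast mean was 4.64 or more would have been listed for embryonic red blood cells at the share of the library that it had in erythroblasts, whose factor was at least 0.171, with an upper estimate of 0.174. This held for 69 of the 150 members (46.0%), and for 49 when the lowest erythroblast replicate was used. For adult red blood cells the level needed was 20.3, which 16 members (10.7%) reached, and 12 by their lowest replicate. With the upper estimates the levels needed were 2.55 and 4.23, and 105 and 77 members reached them. For the other members a fall in their share of the library was not detectable at this cutoff. A higher erythroblast factor would lower the counts above, so they are not least numbers.

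Both members given by ID show the difference between the scales. With each factor at its lower bound, the cutoff lay 20.3-fold below the erythroblast share of ENSGALG00000000811 in embryonic and 4.63-fold below it in adult red blood cells. For ENSGALG00000030151 the cutoff lay 3.99-fold below the erythroblast share in embryonic cells, while its erythroblast share lay below the adult cutoff at 0.911 of it, so no fall in its share can be stated for adult cells. These folds would be smaller with a higher erythroblast factor and larger with a higher red blood cell factor, so they are not bounds.

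**Figure D4:**
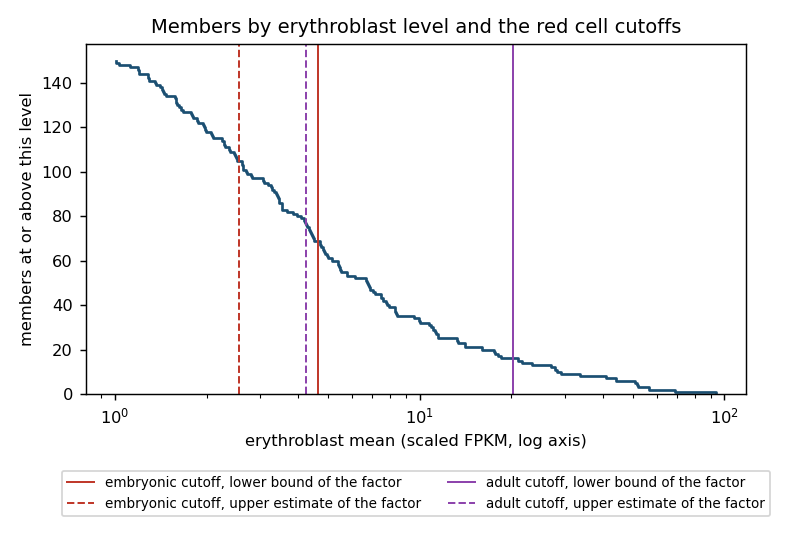
Number of members (vertical) at or above a given erythroblast mean in scaled FPKM (horizontal, log axis), with vertical lines at the level a member needs to be listed for red blood cells at an unchanged share of the library. Solid lines use the lower bound of the cell-number factor, where 69 members lie above the embryonic line (4.64) and 16 above the adult line (20.3), and dashed lines the upper estimate, with 105 and 77.

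The members can be set beside the 108 enriched genes that were listed for red blood cells, of which 53 had a ratio at or above that of the last member. Their erythroblast mean had a median of 16.4 scaled FPKM and their fibroblast mean one of 4.59, both higher than in the members. Their ratio had a median of 2.10. The rule held the members at 2.14 or more, while these genes reached down to 1.005, so the medians of the ratio cannot be compared. Of the 53, 12 had a ratio of 10 or more and 18 one between 5 and 10. Among the 150 members these numbers were 13 (8.67%) and 33 (22%), in both cases a smaller share than among the 53. The highest ratio of the 108 was 170, against 51.4 in the members. Many of the 108 were close to the cutoff. Of the 101 listed for embryonic red blood cells, 67 had a mean under 1 there and 45 a mean under 0.6, and of the 34 listed for adult cells 24 were under 1. Their measured fall from erythroblasts to embryonic red blood cells had a median of 13.5-fold, and 2 of the 101 were higher in embryonic red blood cells than in erythroblasts.

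At high erythroblast levels the bounds of the members could be set against measured falls. The 16 members with an erythroblast mean of 20 or more had bounds from 70.0-fold upward, with a median of 124-fold. The 40 enriched genes at that level that were listed for embryonic red blood cells had a median fall of 48.9-fold, with quartiles of 18.1 and 88.8. In 27 of the 40 the fall was smaller than the lowest bound of the 16 members, and in 13 it was as large or larger. The rule formed these groups and largely sets the outcome. A listed gene has a red blood cell mean at or above the cutoff. Its fall therefore cannot exceed its erythroblast mean divided by the cutoff, which is the bound of a member. At an equal erythroblast level, a member must thus have a fall at least as large as that of a listed gene. The comparison is a description, and it cannot show that members fell more.

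Whether a gene was listed for red blood cells went with its level in erythroblasts. Among enriched genes the share listed was 1 of 102 at an erythroblast mean of 1 to 2, 18 of 155 at 2 to 5, 18 of 114 at 5 to 10, 29 of 75 at 10 to 20, 26 of 54 at 20 to 50 and 16 of 24 at 50 or more. In the genes at or below their fibroblast level the shares in the same bins were 6.25%, 12.2%, 24.1%, 42.2%, 58.9% and 90.4%, each above the 0.980%, 11.6%, 15.8%, 38.7%, 48.1% and 66.7% of enriched genes. At a mean of 20 or more, 53.8% of 78 enriched genes and 70.6% of 419 other genes were listed. Leaving out each replicate in turn, an alternative chosen after seeing the data, gave 48.4% to 55.3% and 70.0% to 72.1% at that level. Where a bin has no upper end, the 2 sets are not matched in level. The highest erythroblast mean was 290 in listed enriched genes, 94.0 in members and 77.8 in the other enriched genes. Over all genes in both tables it was 29241. How far level accounts for the gap was not tested. Over all levels from 1 upward the shares were 20.6% and 19.3%, and the order turned without erythroblast replicate 1, at 19.0% and 19.9%. The members by bin numbered 32, 56, 29, 17, 10 and 6.

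**Figure D5:**
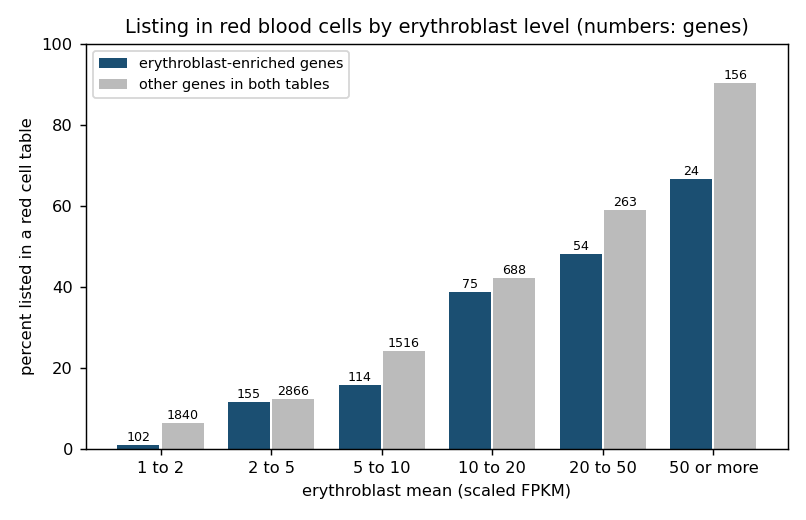
Percent of genes listed in the embryonic or adult red blood cell table (vertical) by erythroblast mean in scaled FPKM (horizontal bins), for erythroblast-enriched genes (blue) and other genes in both tables (grey); numbers above the bars are genes in the bin. The share rises with the erythroblast level in both sets, from 0.980% to 66.7% in enriched genes and from 6.25% to 90.4% in other genes.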

How the data were processed

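The deposited values are FPKM that the authors scaled to cell number, per the names and headers of the 4 tables, with 1 table per cell type and a column per replicate. The factor is not given in the sources used here. STAR 2.7.2b, featureCounts and the build GRCg6a are named in the submitters' processing notes. Each replicate column carries the description of its sample. The members and the comparisons were chosen with earlier results of these data known.

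Values of a library are whole multiples of what 1 read is worth at the length of the gene. From this, lengths and reads were recovered for all 13889 genes, and 100% of 77736 values came within 0.01 of a whole read. The length taken was the smallest that made all values of a gene whole, so this share is no separate check. Where a length is too low, the reads are too. In the fibroblast libraries the constant gave whole library totals of 9069947, 24014646 and 19380182 reads, so they carry no factor (1). Elsewhere, the reads on listed genes are the least a library can total, which bounds the factor from below. The largest bound of the 3 replicates was used, assuming that they share 1 factor. The upper estimate gives each unlisted gene a level of 0.3 and leaves out reads on no listed gene, so it is no limit.

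Erythroblasts and fibroblasts were compared with limma 3.58.1 in R 4.3.3 on log2(FPKM + 1), with a mean-variance trend, over 9442 genes with a mean of at least 1 over the 6 samples, two-sided and Benjamini-Hochberg adjusted. Fold changes on this scale understate those of low genes. Recovery and limma were also run on simulated data, with outcomes not given here. In the limma simulation most genes were equal between the groups. On the authors' scale most were lower in erythroblasts, and the simulation does not cover such a shift. Genes were named by a rule: the member with the highest ratio and the one with the highest erythroblast mean.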

Additional observations from a re-analysis of the deposited data

How the results depend on the processing

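Repeating the selection without each replicate in turn gave 401 to 463 genes that met the conditions and kept 124 to 139 of the 150 members, the fewest without fibroblast replicate 2. Other minimums and rankings kept 118 to 147. The 118 came from an erythroblast minimum of 2, which by definition leaves out the 32 members with a mean of 1 to 2. With equal sums 3297 genes met the conditions, and 144 members were kept. The median ratio of the members was 3.44 to 4.42 with a replicate left out, the highest without fibroblast replicate 2. With the upper estimates of the factor, 105 and 77 members lay above the embryonic and adult cutoffs in place of 69 and 16. Limma called 146 genes higher and 7408 lower in erythroblasts, 1536 and 1219 with samples centred on their median gene, 1059 and 1528 with equal sums, and 2306 and 1173 with voom on recovered reads. With a pseudocount of 0.1 it called 117 members, in place of 96, among 172 genes higher, and with a replicate left out 83 to 96 members among 133 to 161 genes. Deviations of same-numbered libraries had correlations of -0.10, -0.14 and 0.11 for numbers 1 to 3. Those of differently numbered libraries ran from -0.12 to 0.13. Deviations from a mean of 3 libraries depend on each other, so these values cannot decide whether the numbers pair the libraries. With the replicate block 150 genes were higher and 7432 lower, with 99 members among the higher. Few fibroblast reads limit the ratios.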
